A study of Danio rerio with 3 samples.

Results

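Fast and slow muscle myosin genes with the skeletal actins are 10 named members among the 28084 named genes of the RPKM table, 4 fast heavy chains (*myhz1.1*, *myhz1.2*, *myhz1.3* and *myhz2*), the fast light chain *mylpfa*, 2 slow heavy chains (*smyhc1* and *smyhc2*) and 3 actins (*acta1a*, *acta1b* and *actc1b*). The members were taken by symbol, which found 9 of them. *myhz1.3* is listed under its older symbol ns:zf-e68 and was found by its Ensembl ID, ENSDARG00000067997. RNA-seq was run on pooled whole larvae of the AB strain, 6 days after fertilization. WT is 1 library of untreated wildtype larvae, 5MO is 1 library of *atg5* knockdown larvae injected with the *atg5* morpholino as early embryos, and 5mRNA is 1 library of *atg5* overexpression larvae injected with *atg5* mRNA. A morpholino is an antisense oligonucleotide that binds a transcript. *atg5* encodes a protein needed to form autophagosomes, and the study dealt with hedgehog signalling and autophagy in bone-forming cells. No library from larvae injected with a control oligonucleotide or control mRNA was analysed here, so an effect of injection cannot be told apart from an effect of *atg5*.

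With 1 library per group no value has a replicate check, no test between groups was possible, and every comparison is one of libraries. RPKM counts the reads of a gene per kilobase of its length and scaled to the depth of the library, so levels of different genes can be set side by side. Ratios are of RPKM between libraries, which for a gene equals the ratio of its shares of the reads. Their 95% Clopper-Pearson intervals cover counting error only. They leave out PCR copies of a molecule, which RPKM values do not show, and differences between pools of larvae, which were not replicated. The reads behind the values were recovered from their whole-number steps, out of totals from 19502144 to 21857365 per library. The RPKM of *atg5* was 9.08 in WT, 7.69 in 5MO and 8.97 in 5mRNA, so the library named for the mRNA did not hold more *atg5* reads for its depth than WT. WT, 5MO and 5mRNA therefore stand for the libraries so labelled. A morpholino can act on a protein without lowering the level of its transcript.

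Muscle contracts when myosin heads of the thick filament pull on actin of the thin filament. Each myosin has a pair of heavy chains, which carry the motor, and light chains, which stiffen and tune the lever. In the zebrafish trunk, slow fibres form a superficial layer and use slow heavy chains, while fast fibres fill most of the myotome and use fast ones. Many copies of the fast heavy chain genes lie in tandem, as do the slow ones. Of the skeletal muscle genes set as checks, all but *myod1* were abundant in all 3 libraries. *ckma*, the muscle creatine kinase, had an RPKM of 2687 in WT, 2445 in 5MO and 2710 in 5mRNA. *tnnt3b*, fast troponin T, stood at 3630, 3705 and 3656. The heart light chain *myl7* was far lower, with 30.7, 35.3 and 35.7.

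*actc1b* was the most abundant of all named genes in every library. Its RPKM was 14314 in WT, 14915 in 5MO and 13152 in 5mRNA. *mylpfa* followed at rank 12 in WT and *myhz1.1* at rank 21. The other fast heavy chains lay between 497.8 and 1010 RPKM over the 3 libraries and *smyhc1* between 271.6 and 375.5. Last came *acta1b*, *acta1a* and *smyhc2*, the last of these at rank 3795 in WT. From WT to 5MO, *myhz2* and *myhz1.2* changed places in this order. In WT, *myhz1.2* stood at 844.8 and *myhz2* at 793.6, and in 5MO at 777.0 and 1010. Their counting intervals do not overlap in either library.

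**Figure D1:**
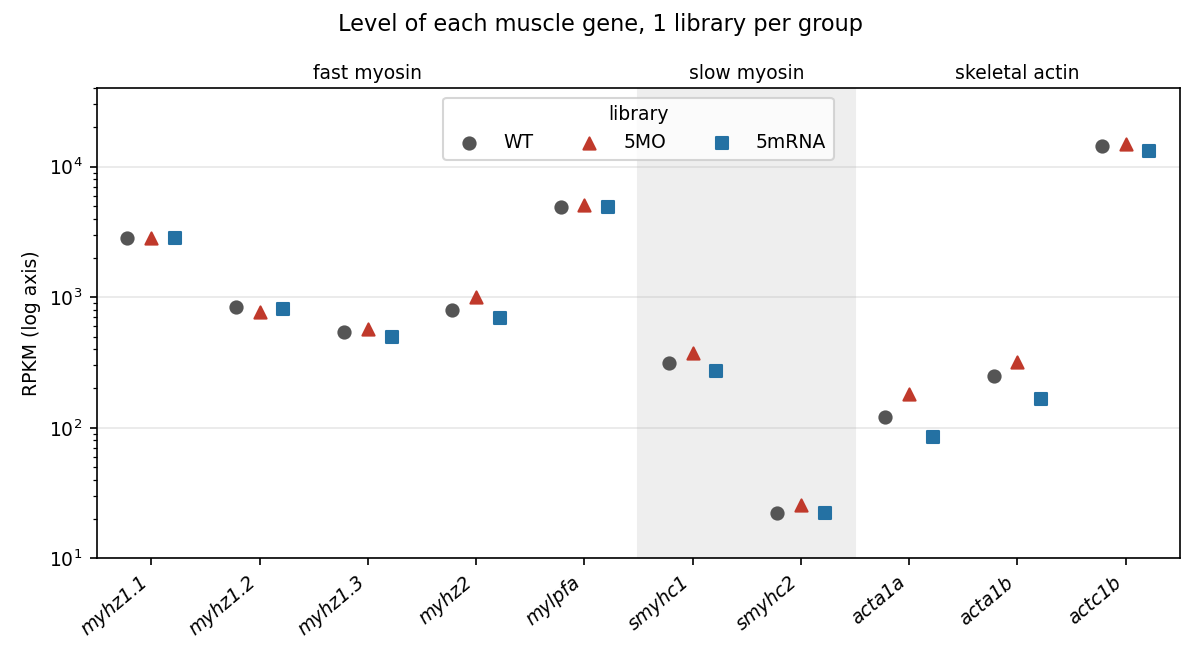
RPKM of the 10 genes on a log axis, with 1 point per library (circle WT, triangle 5MO, square 5mRNA). Levels run from 22.1 for *smyhc2* in WT to 14915 for *actc1b* in 5MO, and the 3 points of *acta1a* and *acta1b* are spread farther apart than those of *myhz1.1* or *mylpfa*.

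The fast heavy chains sit together on chromosome 5 in danRer10, over 102.8 kb. *myhz1.1* (ENSDARG00000067990, chromosome 5 from 31698473 to 31708976) is the leading member and gave 56.7% of the summed RPKM of the 4 genes in WT, 54.7% in 5MO and 58.9% in 5mRNA. Its RPKM was 2852, 2848 and 2863 in WT, 5MO and 5mRNA. The 5MO to WT ratio was 0.999, with an interval from 0.994 to 1.003, so the most abundant heavy chain was at nearly the same level in these libraries. The 5mRNA to WT ratio was 1.004, with an interval from 0.999 to 1.009.

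*myhz2* (ENSDARG00000012944, chromosome 5 from 31606225 to 31617426) lies at the other end of the cluster on the opposite strand. Its RPKM was 793.6 in WT, 1010 in 5MO and 688.4 in 5mRNA. It was highest in 5MO and lowest in 5mRNA. The ratio was 1.27 in 5MO to WT (interval 1.26 to 1.28), 0.867 in 5mRNA to WT (0.860 to 0.875) and 1.47 in 5MO to 5mRNA (1.45 to 1.48). Its part in the summed fast heavy chains was 15.8% in WT, 19.4% in 5MO and 14.2% in 5mRNA. *myhz1.2* (ENSDARG00000067995, chromosome 5 from 31681664 to 31692849) differed from this pattern, with 844.8, 777.0 and 808.8. Both injected libraries were below WT, with ratios of 0.920 in 5MO and 0.957 in 5mRNA. *myhz1.3* (chromosome 5 from 31662346 to 31674230) had 538.6, 569.7 and 497.8, a ratio of 1.06 in 5MO and of 0.924 in 5mRNA.

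*mylpfa* (ENSDARG00000053254, chromosome 3 from 32681334 to 32686893) encodes the phosphorylatable light chain of fast myosin. Its RPKM was 4887, 5076 and 4884 in WT, 5MO and 5mRNA. The ratio was 1.04 in 5MO (interval 1.03 to 1.05) and 0.999 in 5mRNA (0.992 to 1.007). Its paralog *mylpfb* went another way in 5MO, with 1151 in WT, 943.3 in 5MO and 1102 in 5mRNA.

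Summed over the fast genes, heavy chains and *mylpfa*, the log2 ratio was 0.05 in 5MO to WT and -0.03 in 5mRNA to WT, while single members ranged from -0.12 for *myhz1.2* to 0.35 for *myhz2* in 5MO. Over the 4 heavy chains alone the log2 ratio was 0.05 in 5MO to WT and -0.05 in 5mRNA to WT. For the heavy chains a sum is the firmer value. These tandem genes are near-identical in sequence, and how reads were split between them is not stated. Between 3.96% and 4.28% of read pairs mapped to several places. *myhz1.1* and *myhz1.2* lie whole within the annotated span of *ncs1a* on the same strand, a gene at only 3.45 RPKM in WT. That span also covers 6825 bases of *myhz1.3*. *myhz1.3* shares 1515 bases with si:ch211-158m24.12 on the opposite strand, which stood at 868.9, 891.9 and 827.0 RPKM. The sources do not state that the counting used strand, so reads of this overlap cannot be told apart.

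Both slow heavy chains lie on chromosome 24. *smyhc1* (ENSDARG00000099959, from 40956288 to 40968424) is the main myosin of the slow fibres. Its RPKM was 314.3 in WT, 375.5 in 5MO and 271.6 in 5mRNA, again highest in 5MO and lowest in 5mRNA. The ratio was 1.19 in 5MO to WT (interval 1.17 to 1.22), 0.864 in 5mRNA to WT (0.845 to 0.883) and 1.38 in 5MO to 5mRNA (1.35 to 1.41). *smyhc2* (ENSDARG00000103969, from 40956716 to 41025918) was much lower, with 22.1 in WT, 25.8 in 5MO and 22.4 in 5mRNA. Its ratio was 1.17 in 5MO (1.09 to 1.25) and 1.01 in 5mRNA, where the interval from 0.943 to 1.09 includes 1. It made up between 6.43% and 7.60% of the slow sum. Its annotated span shares 16991 bases with si:ch211-198c1.10 on the opposite strand, a gene at 9.44 RPKM in WT. The annotated span of *smyhc2* covers 96.5% of that of *smyhc1* on the same strand, so the split of reads between them is uncertain, and their sum was used beside the single values. This sum had a log2 ratio of 0.25 in 5MO to WT, -0.19 in 5mRNA to WT and 0.45 in 5MO to 5mRNA.

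**Figure D2:**
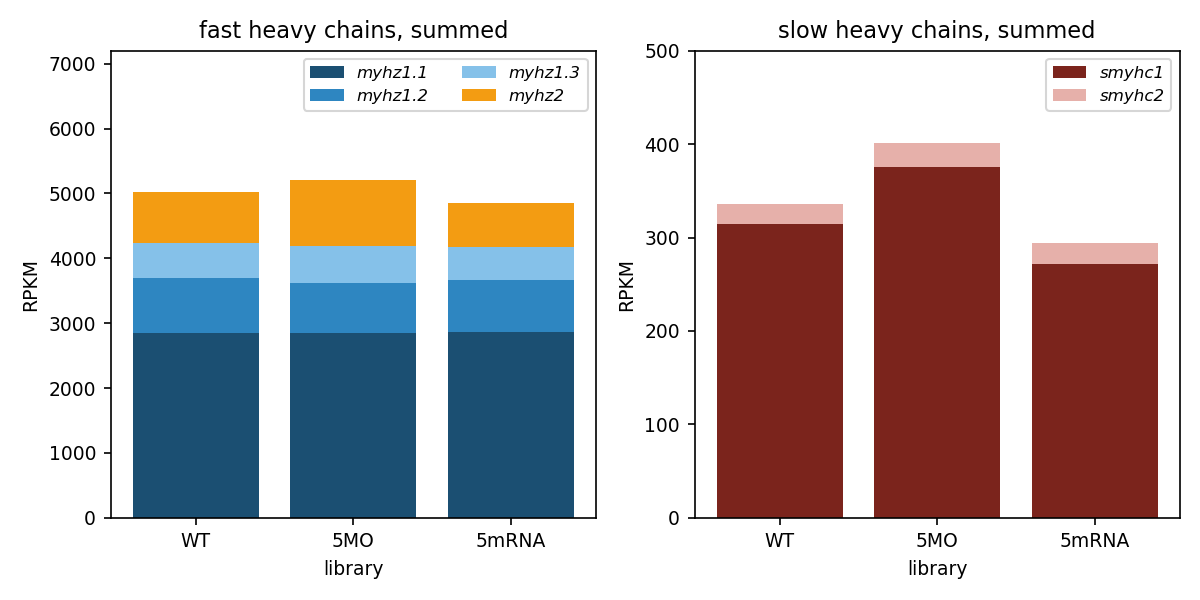
Stacked bars of RPKM per library for the fast heavy chains (left) and the slow heavy chains (right, another scale). The fast bars reach 5029 in WT, 5205 in 5MO and 4858 in 5mRNA, with a wider *myhz2* part in 5MO, and the slow bars reach 336.4, 401.3 and 293.9.

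Set beside each other, fast heavy chains outweighed slow ones by 14.9 to 1 in WT, 13.0 to 1 in 5MO and 16.5 to 1 in 5mRNA, as summed RPKM. The slow genes thus held 6.27%, 7.16% and 5.71% of heavy chain RPKM in WT, 5MO and 5mRNA. The slow sum in 5MO was 1.19 times that in WT, against 1.03 times for the fast sum. In 5mRNA the slow sum was 0.874 of WT and the fast sum 0.966. Single genes did not all follow this contrast of sums. The fast *myhz2* had a ratio to WT of 1.27 in 5MO and 0.867 in 5mRNA, and *myhz1.1* of 0.999 and 1.004. The 2 other slow heavy chains of the lists, at a summed 9.07 RPKM in WT, were at 1.28 times WT in 5MO and 1.19 times in 5mRNA. In these bulk RNA libraries, a different number of slow fibres and a different amount of slow myosin RNA per fibre cannot be told apart.

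Among other genes of slow fibres, *tnnc1b*, a slow troponin C, had 80.5 RPKM in WT, 107.3 in 5MO and 72.6 in 5mRNA. *tpm3*, the gene of the slow thin filament list with the highest mean RPKM, had 144.7, 159.9 and 139.3. *tnnt1*, slow troponin T, went the other way in 5MO, with 15.5, 11.1 and 14.1. The slow thin filament list had 9 of 11 genes higher and 2 lower in 5MO, with a median log2 ratio of 0.16. In 5mRNA 5 were higher and 6 lower, with a median of -0.04. The 11 fast thin filament genes had 9 higher in each injected library, with medians of 0.09 in 5MO and 0.14 in 5mRNA. Over all 23709 genes that reached 0.1 RPKM on average, the median was 0.01 in both comparisons.

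The skeletal actins differed among themselves, with the major gene near its WT level and the minor ones far from it. *actc1b* (ENSDARG00000099197, chromosome 17 from 117124 to 124703) encodes the main alpha actin of larval trunk muscle in zebrafish and gave 97.5% of the RPKM of the 3 actins in WT. Its ratio was 1.04 in 5MO to WT (interval 1.04 to 1.05) and 0.919 in 5mRNA to WT (0.915 to 0.923).

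*acta1a* (ENSDARG00000036371, chromosome 1 from 53286191 to 53293789) had an RPKM of 121.8 in WT, 182.6 in 5MO and 84.2 in 5mRNA. Its level was highest in 5MO and lowest in 5mRNA. The ratio was 1.50 in 5MO to WT (interval 1.43 to 1.58), 0.692 in 5mRNA to WT (0.652 to 0.734) and 2.17 in 5MO to 5mRNA (2.05 to 2.29). *acta1b* (ENSDARG00000055618, chromosome 13 from 24148571 to 24153992) had 249.997, 321.7 and 166.4 in WT, 5MO and 5mRNA, the same order. The ratio was 1.29 in 5MO to WT (1.25 to 1.33), 0.666 in 5mRNA to WT (0.643 to 0.689) and 1.93 in 5MO to 5mRNA (1.87 to 1.998). These are the members with the widest spread across the libraries. The transcript si:dkey-162b3.5 overlaps the last 773 bases of *acta1b* on the opposite strand and had 189.5, 228.5 and 112.4 RPKM. As strand use is not stated, reads of *acta1b* and of this partner cannot be told apart within these 773 bases.

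**Figure D3:**
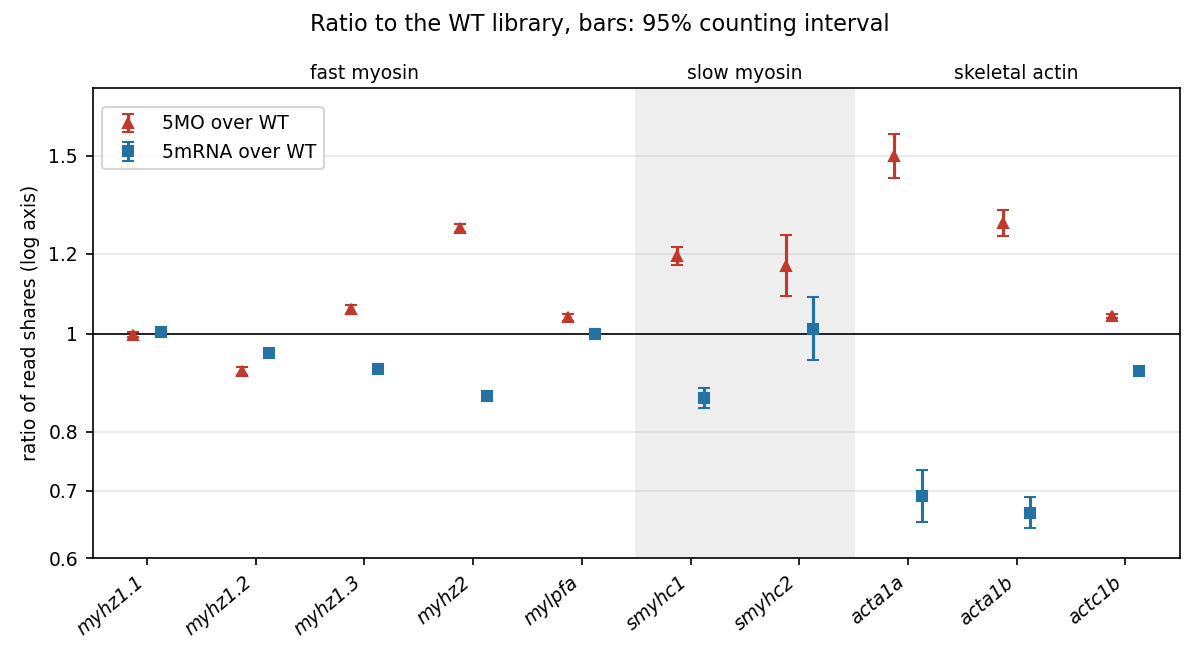
Ratio of read shares to WT for each gene on a log axis (triangles 5MO, squares 5mRNA), with 95% counting intervals as bars and a line at 1. The ratios of *myhz1.1* lie on the line, and those of *acta1a* and *acta1b* lie farthest from it, at 1.50 and 1.29 in 5MO and at 0.692 and 0.666 in 5mRNA.

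Other muscle actins were read beside them, and *actc1a*, a further cardiac-type alpha actin, had 54.6 RPKM in WT, 73.2 in 5MO and 28.7 in 5mRNA. Its ratio was 1.34 in 5MO and 0.526 in 5mRNA to WT. zgc:86709, named *actc2* in RefSeq, had 5.98, 9.95 and 4.25. *acta2*, the smooth muscle actin, had the reverse order, with 68.6 in WT, 62.4 in 5MO and 78.6 in 5mRNA. si:ch73-187m15.4, which carries the name *actc1c* in the reference table, was higher in both injected libraries, with 44.2, 49.0 and 65.2. Vertebrate alpha actins are nearly identical in their protein sequence. Some reads may have been assigned to the wrong copy, which was not tested. In WT, *acta1a* gave 0.829% and *acta1b* 1.70% of the RPKM of the 3 skeletal actins.

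Counts past a fixed fold were small. A gene was counted as changed at a ratio of at least 1.5 after adding 0.1 to each RPKM. In 5MO to WT, 0 of the 10 members were higher and 0 lower by this fold, against 5.23% and 5.74% of the 19172 genes that reached 1 RPKM on average. *acta1a*, with a log2 ratio of 0.58, lay just under the limit. In 5mRNA to WT, 0 were higher and 1 was lower, *acta1b*, with a log2 ratio of -0.59 just past the limit, against 4.87% and 5.37% of genes. *acta1a* was next, with -0.53. In 5MO to 5mRNA, 2 were higher, *acta1a* with 1.12 and *acta1b* with 0.95, and 0 lower, against 5.6% and 5.37%. *myhz2* was next, with 0.55. With 10 genes, counts of this size do not set the members apart from all genes.

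The members were also set among abundant genes. In 5MO to WT, the log2 ratios of the 795 genes that reached 100 RPKM on average ran from -0.43 at the 5th to 0.42 at the 95th percentile, a range chosen after the members' values were known. Of the 9 members at this level, *acta1a* lay above it, and *acta1b* at 0.36, *myhz2* at 0.35 and *smyhc1* at 0.26 lay inside. In 5mRNA to WT the range was from -0.32 to 0.49, with *acta1a* at -0.53 and *acta1b* at -0.59 below it. *smyhc1*, at -0.21, lay inside that range. In 5MO to 5mRNA it was from -0.50 to 0.42, and *acta1a*, *acta1b*, *myhz2* at 0.55 and *smyhc1* at 0.47 lay above. Over the 10 members, 8 were higher and 2 lower in 5MO to WT, with a median of 0.15. In 5mRNA to WT 2 were higher and 8 lower, with a median of -0.12. Over all 23709 genes that reached 0.1 RPKM, 12027 were higher and 11641 lower in 5MO, and 12121 and 11547 in 5mRNA. Some of the members' signs rest on ratios near 0. *myhz1.1* had -0.002 in 5MO and 0.005 in 5mRNA. In 5mRNA *smyhc2* had 0.02 and *mylpfa*, counted among the lower genes, had -0.0009. The counting intervals of all these ratios include no change. Both comparisons use the same WT library.

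The other myosin heavy chain genes of the lists lay far below the major members, though *myhc4* and *vmhcl* stood above *smyhc2* in each library. This leaves out si:ch211-158m24.12, which overlaps *myhz1.3*, was not in the lists and stood at 868.9 RPKM in WT. Whether it is a myosin heavy chain gene was not settled. Neither the fast heavy chain sums nor the fast to slow ratios include it. *myhc4*, within the fast cluster, had 32.1 RPKM in WT, 32.9 in 5MO and 34.6 in 5mRNA. *myhb* had 11.3, 16.7 and 14.2, higher in both injected libraries, and *myha* 7.88, 7.10 and 7.34. zgc:66156, which the tables used here do not describe as a myosin, was listed with them and had 0.530, 3.06 and 0.841, from 9, 54 and 16 reads. wu:fd14a01, now named *myhz1.1l* and picked out after its values were seen, had 5.81, 10.02 and 6.78. LOC100329813 on chromosome 24, picked out in the same way, had 0.790, 0.717 and 0.611. These come from only 90, 85 and 78 reads, no counting interval was computed, and no direction is read from them. The slow-type *myh7bb* had 5.80, 7.81 and 6.51, and *myh7ba* 3.27, 3.82 and 4.32. Of the heart chains, *vmhcl* had 23.6, 38.8 and 26.7, *vmhc* 15.5, 17.6 and 15.2, and *myh6* 0.838, 1.05 and 0.802. The sum of these 3 heart genes was 40.02, 57.4 and 42.7, far below the fast heavy chain sums.

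Newly made myosin heads need chaperones to fold, and 17 genes of myosin folding and assembly were examined for this reason. *unc45b*, the muscle chaperone that binds the myosin head, had 6.85 RPKM in WT, 12.2 in 5MO and 6.03 in 5mRNA, a ratio of 1.79 in 5MO (interval 1.55 to 2.07) and of 0.880 in 5mRNA (0.745 to 1.04). *hsp90aa1.1*, its Hsp90 partner in zebrafish muscle, had 21.3, 30.7 and 13.2, a ratio of 1.44 in 5MO and 0.620 in 5mRNA. *hspb1*, a small heat shock protein, had 8.65, 15.8 and 9.51. *smyd1a*, a muscle methyltransferase and the most abundant of the list, had 267.7, 246.8 and 255.3, and *hsp90aa1.2* had 30.2, 31.02 and 25.04. Of the 16 genes that reached 0.1 RPKM on average, 10 were higher and 6 lower in 5MO, with a median log2 ratio of 0.13. In 5mRNA 4 were higher and 12 lower, with a median of -0.19.

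Genes that break down muscle protein were read as a further list. *trim63a*, a MuRF ubiquitin ligase that marks thick filament proteins for the proteasome in mammals, had 160.0 RPKM in WT, 88.0 in 5MO and 131.2 in 5mRNA. *fbxo32*, which encodes atrogin-1, had 139.0, 90.1 and 150.7, and *trim63b* had 40.3, 26.7 and 31.3. *capn3a*, a muscle calpain, had 118.6, 119.1 and 96.1. These 3 ligase genes, named for their level or size of change, were lowest in 5MO. Their ratio to WT was 0.550 for *trim63a*, 0.648 for *fbxo32* and 0.662 for *trim63b*. In 5MO to WT, 1 of 20 list genes was higher and 4 lower by at least 1.5-fold, against 5.23% and 5.74% of all genes. The extreme log2 ratios of the list, -0.94 and 0.79, belong to genes not named here. Over 20 genes of the list 10 were higher and 10 lower in 5MO, with a median that rounds to 0.00.

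**Figure D4:**
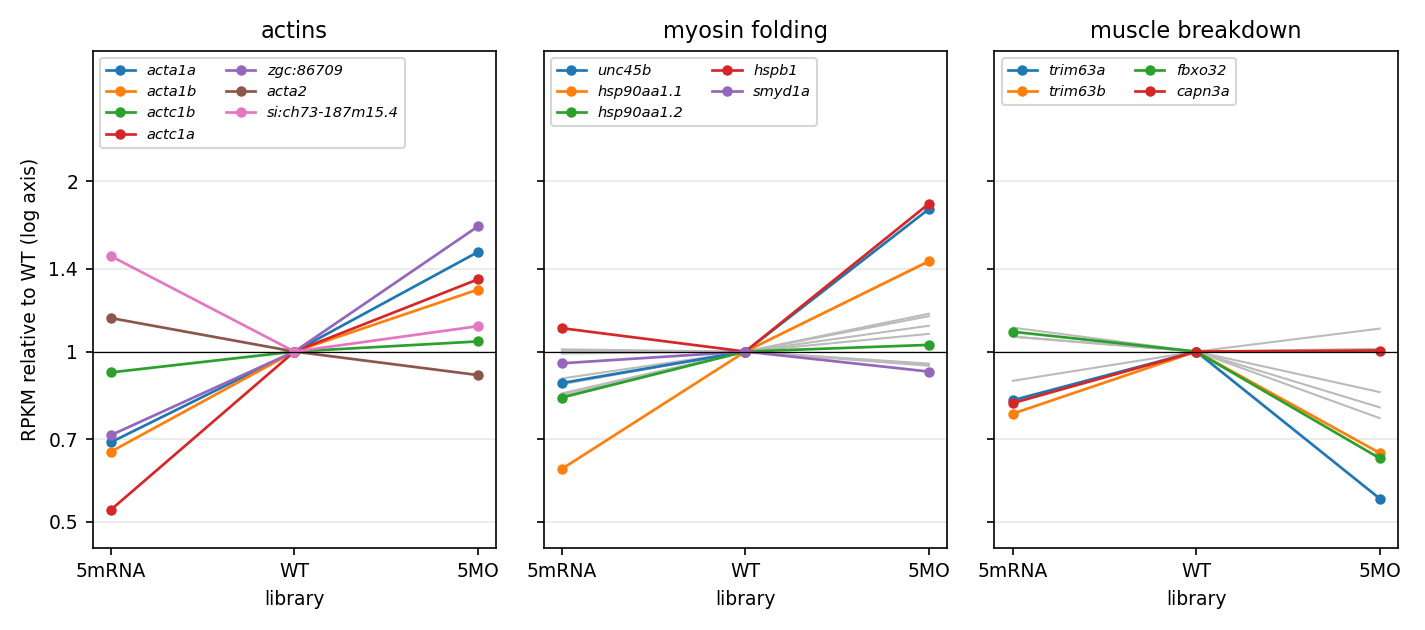
RPKM relative to WT on a log axis for the actins, for genes of myosin folding and for genes of muscle breakdown, with 1 point per library, lines joining points of a gene, and no dose order implied. Grey lines are the other genes of the folding and breakdown lists that reached 5 RPKM on average. *acta1a*, *acta1b* and *actc1a* slope upward from 5mRNA to 5MO, as do *unc45b* and *hsp90aa1.1*, and *trim63a* reaches 0.550 of WT in 5MO.

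Further muscle lists, given next, had median log2 ratios to WT from -0.04 to 0.21. Muscle light chains and their kinases had 8 of 11 genes higher in 5MO and 4 of 11 in 5mRNA, with medians of 0.08 and -0.03. *mylz3*, an alkali light chain of fast myosin, stood at 5770, 5801 and 5655 RPKM. *mylk4a* had 29.0, 15.1 and 14.2, lower in both injected libraries. Thick filament and Z disc genes had 27 of 35 higher in 5MO and 15 of 35 in 5mRNA, with medians of 0.09 and -0.04. In that list *flncb*, a filamin of the Z disc, had 4.16, 6.84 and 4.32, *tcap*, which caps titin at the Z disc, had 23.9, 19.6 and 10.5, and *lmod3*, an actin filament nucleator, 11.1, 7.28 and 5.65. Calcium handling genes had 21 of 29 higher in 5MO and 19 of 29 in 5mRNA, with medians of 0.21 and 0.08. Energy genes had 11 of 21 higher in each, with medians of 0.03 and 0.01. Genes of the membrane and costamere, the link from sarcomere to membrane, had 21 of 32 and 19 of 32 higher, with medians of 0.07 and 0.04. Summed RPKM, which the most abundant genes set, ran against the median in several lists. The calcium handling sum was 0.971 of WT in 5MO and 1.09 times WT in 5mRNA, with *pvalb2*, a parvalbumin, at 8333, 7604 and 9486 RPKM. In 5MO the sum was 0.988 of WT for fast thin filament genes, 0.940 for energy genes and 0.991 for folding genes. The breakdown sum was 0.771 of WT in 5MO and 0.912 in 5mRNA, where its median was 0.10. The slow thin filament sum in 5mRNA was 1.004 times WT, beside a median of -0.04.

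**Figure D5:**
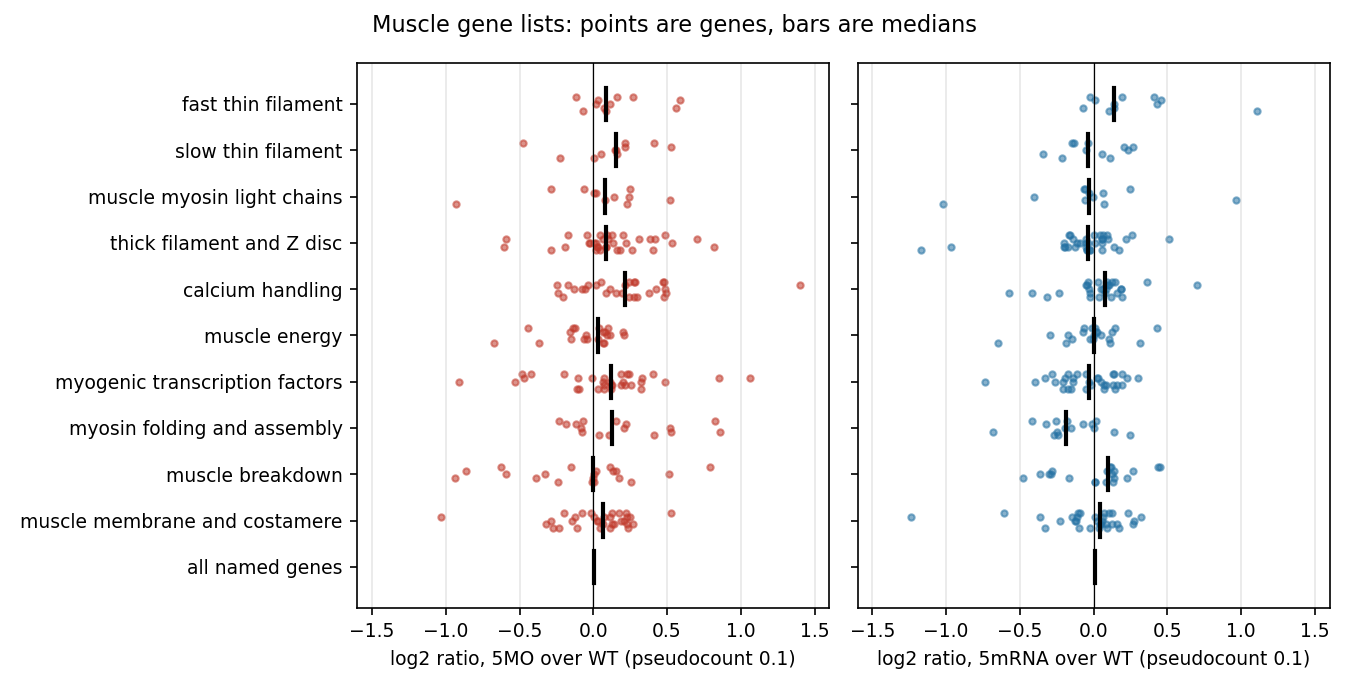
Log2 ratio to WT (RPKM + 0.1) of each gene in 10 muscle lists, left for 5MO and right for 5mRNA. Points are genes that reached 0.1 RPKM on average, black bars are medians, and the lowest row gives the median of all named genes, 0.01 in both panels.

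Transcription factors of muscle had 23 of 33 genes higher in 5MO and 15 of 33 in 5mRNA, with medians of 0.12 and -0.03. The myogenic factors *myod1* and *myog* were among the lower genes. *myod1* had 13.1, 9.76 and 10.7 RPKM in WT, 5MO and 5mRNA, and *myog* 18.5, 12.8 and 11.1, both below WT in each injected library.

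Whole larvae hold every cell type, so other lists were read beside the muscle genes. Some of them share genes with the muscle lists and are not separate from muscle. *xirp2a* is in the tendon and costamere lists and *desmb* in the smooth muscle and costamere lists. *tnni1b* is in the heart marker and slow thin filament lists. In 5MO, 14 of 17 neuron genes were higher, with a median of 0.20 and a summed RPKM of 1756 against 1623 in WT and 1633 in 5mRNA. In 5MO, 11 of 14 skin genes were higher, with a median of 0.16 and sums of 6438, 7241 and 6663 in WT, 5MO and 5mRNA. Smooth muscle genes had 3 of 14 higher in 5MO, with a median of -0.27 and sums of 182.8, 156.2 and 189.2. Heart markers had 7 of 12 higher, with a median of 0.11 and sums of 94.1, 100.8 and 109.8. Tendon and connective tissue genes had 9 of 15 higher, with a median of 0.18 and sums of 235.3, 228.4 and 207.7. In 5mRNA the medians of these lists ran from -0.16 for tendon to 0.23 for heart. The part of any such shift in the muscle values was not tested.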

How the data were processed

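Total RNA of whole larvae was sequenced in read pairs, with 1 library per group. Per the labels, reads were aligned with STAR 2.5.2a to danRer10. The counting tool and annotation release are not given in the sources used here. The authors deposited RPKM values per gene and STAR mapping summaries (other values, read counts and percentages). Rows naming no gene, 33 of 28117 with 35.7% to 36.1% of the RPKM sum, were left out. Whole reads were recovered as the smallest numbers that fit all 3 libraries, and a whole multiple of them fits as well, so intervals can be too wide. The slow heavy chains fit lengths of only 2579 and 3363 bases, against 5961 to 6016 for the fast ones, and their reads may be too low for this reason. *acta1a* fits 1084 bases, and its reads may be too low as well.

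Log2 ratios used RPKM + 0.1. Lists used a mean RPKM of at least 0.1, and counts past 1.5-fold at least 1. Missing list symbols were matched by Ensembl or NCBI gene ID. Members and 19 lists were chosen with earlier results of these data known. The rule for naming took the members, *atg5*, every other heavy chain of the lists, and from each other list the most abundant gene and, of genes averaging at least 5 RPKM, the 2 with the largest absolute log2 ratio to WT in each injected library; the text gives part of these. *ckma*, *tnnt3b*, *tnnc2*, *pvalb1* and *myod1* were checks of skeletal muscle, and *myl7*, *vmhc* and *myh6* of heart muscle. Recovery was tested on simulated data. Analyses used Python 3.11.15, pandas 2.3.3 and scipy 1.17.1. Alternatives were pseudocounts of 1 and 0.01, 2 scalings, other filters and a 2-fold limit.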

Additional observations from a re-analysis of the deposited data

How the results depend on the processing

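Of 30 log2 ratios of single members, 27 kept their sign under all 4 alternatives of pseudocount and scaling, and none moved by more than 0.024. The other 3 are those of *myhz1.1*, which lie within 0.01 of 0. A pseudocount cannot change the sign of a log2 ratio, and each scaling shifts all genes by nearly the same amount. Larger ratios therefore had to keep their sign, and the count of 27 is no check on their direction. Median of ratios scaling and rescaling to the same RPKM sum moved some sums beyond counting error. For fast myosin the log2 ratio became 0.0451 and 0.0632 in 5MO to WT and -0.0339 and -0.0383 in 5mRNA to WT, in that order, and 0.10 in 5MO to 5mRNA with the same RPKM sum. For skeletal actins it became 0.0633 and 0.0815, -0.14 and -0.14, and 0.23. With the same RPKM sum, 1 member, *acta1a*, passed the fold in 5MO to WT. With a pseudocount of 1, 0 passed in 5mRNA to WT. At a fold of 2, 0 passed there and 1 passed in 5MO to 5mRNA. The fast to slow ratio was 14.7 in WT, 12.8 in 5MO and 16.1 in 5mRNA with all heavy chain genes of the lists, and 34.1, 29.6 and 37.6 in recovered reads, which are at their smallest for the slow genes. Its order over the libraries was the same in each case, which these alternatives could hardly have changed. Recovered reads are RPKM times the depth and a length fixed for each gene, and the added genes were low beside the members. No paired analysis was possible because each group has 1 library. Depth limits *smyhc2*, with 1448 recovered reads in WT, a number that may be too low by a whole multiple.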
